A study of Homo sapiens with 2 samples.

Results

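The BCL2 family of apoptosis regulators was examined in REH and 697, a pair of established human lines of B-lineage acute lymphoblastic leukemia. The members were a fixed list of 10 genes, found by symbol among the 57773 genes counted in RNA of each line. They were the anti-apoptotic BCL2, BCL2L1, MCL1 and BCL2A1, the effectors BAX and BAK1, and the BH3-only genes BCL2L11, BBC3, PMAIP1 and BID. In REH an ETV6/RUNX1 fusion is present and the other ETV6 allele is deleted, whereas 697 lacks that fusion. Both lines were grown in serum-supplemented RPMI with no drug treatment named, and each was represented by 1 library. The spread between cultures of a line is therefore unknown, no test was possible, and every ratio below compares these libraries.

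As background, proteins of the BCL2 family decide whether the outer membrane of the mitochondria stays closed. The effectors BAX and BAK form pores in that membrane, anti-apoptotic members such as BCL2, BCL-XL and MCL1 bind and restrain the effectors, and BH3-only proteins engage the anti-apoptotic members or activate the effectors directly. During B-cell development BCL2, BCL-XL and MCL1 each serve the survival of particular precursor stages, and drugs that mimic a BH3 domain are used in lymphoid leukemia. The comparison asked how transcripts of the opposing sides were weighted within each line.

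The REH library held 45188375 reads counted in genes and the 697 library 41097497. Levels are given as CPM (counts per 1000000 reads in genes, with the totals scaled by TMM), and levels of different genes are compared only as CPM per kb of annotated exon. The intervals given are 95% intervals and cover counting error only. Mitochondrial genes took a share of 3.11% in REH and of 6.13% in 697, and the part of this gap in any result was not tested. Of 8 B-lineage markers, 7 had at least 10 reads in REH and 8 in 697, the exception being VPREB1 with 3 reads in REH. Of 8 T-lineage and myeloid markers, 3 had 0 reads in REH and 4 in 697, with a summed level of 254 CPM in REH and 2.22 CPM in 697. Nearly all of the REH sum was MPO, a myeloid granule enzyme with 12643 reads in REH and 12 in 697. In bulk RNA, fewer cells expressing a gene and less RNA per cell cannot be told apart.

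Of the 10 members, 9 reached the minimum of 10 reads in either library, and BCL2A1 did not. The window around the transcription start of BCL2A1 was set beside those of BCL2 and PMAIP1, well counted members of either side. The windows hold 250 bases before and 50 bases after a start, are taken from RefSeq on GRCh38.p14 and are printed 5′ to 3′ on the strand of the gene, with every CG dinucleotide in capitals. They lie at chr18:63319720-63320019 on the minus strand for BCL2, at chr15:79971147-79971446 on the minus strand for BCL2A1 and at chr18:59899746-59900045 on the plus strand for PMAIP1. The annotated BCL2 gene begins at 63320128 on that strand, so the BCL2 window lies wholly inside the gene. The BCL2A1 and PMAIP1 windows reach upstream of their genes, so the BCL2 window is not like them in position.
BCL2: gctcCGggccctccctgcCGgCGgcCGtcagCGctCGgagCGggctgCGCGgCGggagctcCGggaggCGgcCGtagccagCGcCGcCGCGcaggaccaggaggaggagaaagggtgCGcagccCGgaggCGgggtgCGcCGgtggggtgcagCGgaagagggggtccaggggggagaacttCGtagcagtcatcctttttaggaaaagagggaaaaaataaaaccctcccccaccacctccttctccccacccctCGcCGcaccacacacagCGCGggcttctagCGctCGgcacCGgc
BCL2A1: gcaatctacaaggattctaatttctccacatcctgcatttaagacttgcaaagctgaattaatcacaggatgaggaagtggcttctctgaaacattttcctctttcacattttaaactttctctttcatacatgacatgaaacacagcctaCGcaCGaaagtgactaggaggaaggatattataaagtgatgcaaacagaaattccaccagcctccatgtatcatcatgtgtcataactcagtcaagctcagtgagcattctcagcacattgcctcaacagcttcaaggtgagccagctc
PMAIP1: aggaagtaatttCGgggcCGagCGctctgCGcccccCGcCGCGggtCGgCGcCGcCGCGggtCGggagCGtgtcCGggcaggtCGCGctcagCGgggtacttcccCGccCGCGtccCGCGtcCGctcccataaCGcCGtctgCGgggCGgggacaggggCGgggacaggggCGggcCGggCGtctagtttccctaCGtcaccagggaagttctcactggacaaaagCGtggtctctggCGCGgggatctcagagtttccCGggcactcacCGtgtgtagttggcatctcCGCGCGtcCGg

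The BCL2A1 window held 2 CG dinucleotides and 41.0% G and C, the BCL2 window 31 and 70.7%, and the PMAIP1 window 42 and 71.3%. Over the 35116 windows of the table the median was 14 CG dinucleotides, and 18.2% of windows held as few as BCL2A1 or fewer. Windows were found for 9 of the 10 members, with several for BCL2L1 and BID. BAX (38), BCL2L11 (39) and 4 of the 5 BID windows also lay above the upper quartile of 28. Of these, the BCL2L11 window and the 4 BID windows lie wholly inside the annotated gene, as the BCL2 window does. The remaining BID window, which reaches upstream of the gene, held 6 CG dinucleotides. BAK1 (7) and BBC3 (5) lay below the median, as BCL2A1 did, and had between 572 and 1053 reads in each library. A link between CG content and level was not tested. The GC box GGGCGG, searched on both strands, occurred 4 times in the PMAIP1 window, 3 times in the BCL2L11 window and 2 times in each of the BAX and BAK1 windows. It occurred between 2 and 4 times in 4 BID windows and was not in the fifth, and it was in 1 of the 2 BCL2L1 windows. The BCL2, BCL2A1 and BBC3 windows did not hold it, and 44.95% of all windows did.

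Among the anti-apoptotic members, MCL1, BCL2 and BCL2L1 were well expressed in both lines, and BCL2A1 was close to the limit of detection. BCL2 (chromosome 18, 63123346 to 63320128, GRCh38), the founding member of the family, had 19056 reads or 379 CPM in REH and 7555 reads or 204 CPM in 697. It was thus 1.85-fold higher in REH, a log2 ratio of 0.89 (interval 0.85 to 0.93), the largest ratio in size among the 9 members with at least 10 reads. Per kb, BCL2 stood above 91.0% of protein-coding genes with at least 10 reads in REH and above 76.8% in 697.

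MCL1 (chromosome 1, 150560895 to 150579738), which encodes a short-lived survival protein, had 9863 reads or 196 CPM in REH and 8001 reads or 217 CPM in 697. BCL2L1 (chromosome 20, 31664452 to 31723989), the gene of BCL-XL, had 4821 reads or 95.9 CPM in REH and 3794 reads or 103 CPM in 697. Both were thus nearly level between the lines, with log2 ratios of -0.14 (interval -0.18 to -0.10) for MCL1 and -0.10 (interval -0.16 to -0.04) for BCL2L1. These small ratios turned positive without TMM scaling, at 0.16 and 0.21. MCL1 shares exon bases with ADAMTSL4 on the opposite strand and with ADAMTSL4-AS1 on the same strand. Its reads counted by strand added up to the count on either strand. That sum bears only on ADAMTSL4, since it cannot show reads lost to a gene on the same strand. BCL2L1 shares 1735 of its 4197 exon bases with ABALON on the opposite strand. ABALON is not among the genes counted, so its reads may be held in the BCL2L1 count, which the sums by strand cannot show.

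BCL2A1 (chromosome 15, 79960892 to 79971196), a target of NF-kB signalling in activated lymphocytes, had 7 reads in REH and 0 in 697. At this depth 3 reads, taken as the floor in each library, equal 0.0597 CPM in REH and 0.0812 CPM in 697. With 697 set at that floor, the observed level of 0.139 CPM in REH was 1.72-fold higher. The lower limit of the counting interval of the log2 ratio, which includes the error on the 7 reads, was 0.08. In both lines BCL2A1 was far below the other members.

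**Figure D1:**
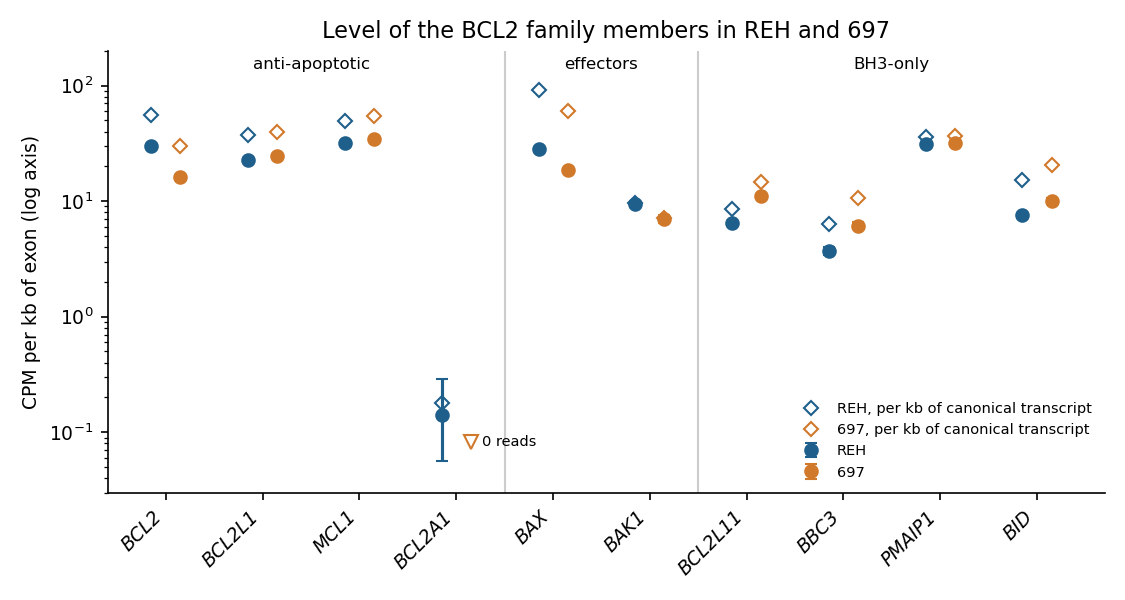
Level of the 10 members in REH (blue) and 697 (orange) as CPM per kb on a log axis; filled points use all annotated exons with 95% counting intervals, open diamonds the canonical transcript, and the open triangle marks the floor of 3 reads for BCL2A1, which had 0 reads in 697. In both lines MCL1 and PMAIP1 lead per kb of exon and BCL2A1 is lowest, and the open diamonds show that BAX is highest per kb of canonical transcript.

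Both effector genes were higher in REH. BAX (chromosome 19, 48954815 to 48961798), whose product moves from the cytosol to mitochondria, had 3685 reads or 73.3 CPM in REH and 1773 reads or 48.0 CPM in 697. Its log2 ratio was 0.61 (interval 0.53 to 0.69), a 1.53-fold difference. BAK1 (chromosome 6, 33572547 to 33580293), whose product resides in the mitochondrial membrane, had 1053 reads or 20.9 CPM in REH and 572 reads or 15.5 CPM in 697. The log2 ratio was 0.44 (interval 0.29 to 0.59). BAK1 has annotated pseudogene copies, BAK1P1 and BAK1P2, and reads that fit several places were not counted, so its level may be understated in both lines.

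Of the 4 BH3-only members, 3 were lower in REH and PMAIP1 was level. BCL2L11 (chromosome 2, 111119378 to 111168444), the gene of BIM, which binds every anti-apoptotic member, had 2204 reads or 43.8 CPM in REH and 2780 reads or 75.2 CPM in 697. It was 1.72-fold higher in 697, a log2 ratio of -0.78 (interval -0.86 to -0.70). BBC3 (chromosome 19, 47220822 to 47232766), the p53 target that encodes PUMA, had 591 reads or 11.8 CPM in REH and 722 reads or 19.5 CPM in 697, a log2 ratio of -0.73 (interval -0.89 to -0.57). These were the members with the largest ratios towards 697, and they kept that direction without TMM scaling at -0.47 and -0.43.

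BID (chromosome 22, 17734138 to 17774770), which links death receptors to mitochondria after cleavage by caspase-8, had 1670 reads or 33.2 CPM in REH and 1648 reads or 44.6 CPM in 697. Its log2 ratio was -0.43 (interval -0.52 to -0.33). PMAIP1 (chromosome 18, 59899996 to 59904305), the gene of NOXA, whose product binds mainly MCL1, had 3426 reads or 68.2 CPM in REH and 2566 reads or 69.5 CPM in 697. Only for PMAIP1 among the 9 did the interval hold 0, at a log2 ratio of -0.03 (interval -0.10 to 0.05).

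**Figure D2:**
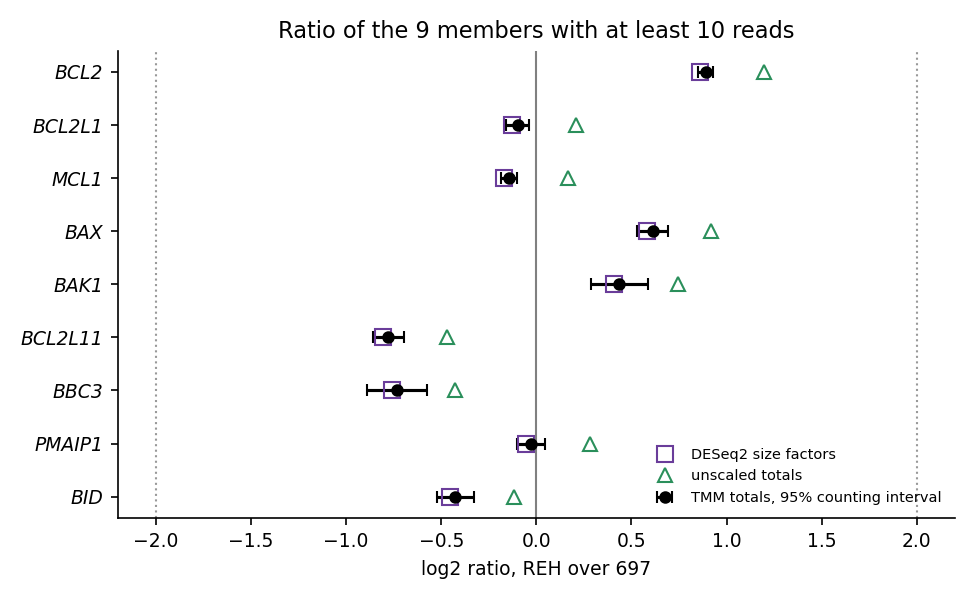
Log2 ratio of REH over 697 for the 9 members with at least 10 reads; black points are TMM-scaled with 95% counting intervals, purple squares use DESeq2 size factors, green triangles unscaled totals, and dotted lines mark a ratio of 2 in size. BCL2, BAX and BAK1 lie right of 0 and BCL2L11, BBC3 and BID left of it under all 3 scalings, while MCL1, BCL2L1 and PMAIP1 change side without scaling.

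Set against all genes with at least 10 reads, the 9 members had small ratios between the lines. That background includes genes with far fewer reads, where counting error widens ratios, and no background matched for reads was compared. No member among the 9 reached a log2 ratio of 2 in size, which 20.7% of the 19145 genes with at least 10 reads did. No member reached a ratio of 1 in size either, against 39.8% of those genes, although BCL2 reached 1.20 without TMM scaling. The median absolute log2 ratio was 0.44 over the 9 members and 0.74 over all genes. The counting interval did not hold 0 for 8 of the 9 members (88.9%), against 78.3% of all genes, and depends on the number of reads. The signed median was -0.10 over the members and 0.05 over all genes, with 3 members above 0 and 6 below. Unscaled totals moved every ratio up by 0.31, and then 6 members lay above 0 and 3 below.

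**Figure D3:**
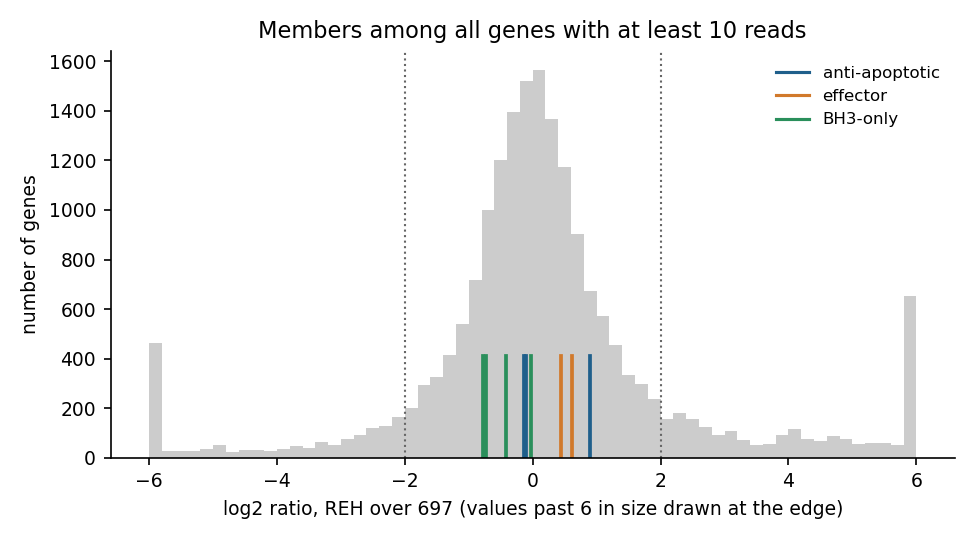
Number of genes by log2 ratio of REH over 697 for the 19145 genes with at least 10 reads (grey), with the 9 members as vertical lines coloured by role and dotted lines at 2 in size. All 9 members lie between -0.78 and 0.89, with the BH3-only genes left of 0 and the effectors right of it.

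The order of the members within a library does not depend on the scaling of totals. Per kb of exon, REH ran from MCL1 (31.5 CPM per kb) over PMAIP1 (31.2), BCL2 (30.1), BAX (28.3) and BCL2L1 (22.9) to BAK1 (9.47), BID (7.52), BCL2L11 (6.5), BBC3 (3.69) and BCL2A1 (0.140). The neighbours MCL1 and PMAIP1, and likewise PMAIP1 and BCL2, did not differ beyond counting error. In 697 the order was MCL1 (34.8 CPM per kb), PMAIP1 (31.8), BCL2L1 (24.5), BAX (18.5), BCL2 (16.2), BCL2L11 (11.2), BID (10.1), BAK1 (7.0) and BBC3 (6.14), with BCL2A1 at 0, and every pair of neighbours differed beyond counting error. BCL2 was thus placed 3 of 10 in REH and 5 of 10 in 697. The order depends on the length used: per kb of the canonical transcript, BAX was first in both lines, since its canonical transcript is 0.795 kb against 2.59 kb of exon in all.

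BCL2, MCL1 and BCL2L1 shared the anti-apoptotic side differently in the lines. In REH, MCL1 gave 37.3% of the summed anti-apoptotic level per kb, BCL2 35.5% and BCL2L1 27.0%. In 697, MCL1 gave 46.1%, BCL2L1 32.4% and BCL2 21.5%. The ratio of BCL2 to MCL1 per kb of exon was 0.953 (interval 0.930 to 0.977) in REH and 0.466 (interval 0.451 to 0.481) in 697. Per kb of canonical transcript it was 1.11 in REH and 0.542 in 697, so whether MCL1 or BCL2 led in REH depended on the length used. The ratio of BCL2 to MCL1 differed 2.05-fold between the libraries, and the ratio of BCL2 to BCL2L1 differed 1.98-fold. A fold between libraries of this kind depends neither on gene length nor on the scaling.

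On the pro-apoptotic side, PMAIP1 gave the largest part per kb of exon in both lines, with 36.0% in REH and 37.5% in 697. Per kb of canonical transcript BAX led instead, with 54.9% in REH and 40.3% in 697, and PMAIP1 gave 21.4% and 24.4%. Per kb of exon, BAX gave 32.7% in REH and 21.9% in 697, and BAK1 gave 10.9% and 8.26%. BCL2L11 gave 7.5% in REH and 13.2% in 697, BID 8.67% and 11.9%, and BBC3 4.26% and 7.24%. Between the lines, the part of BAX was thus larger in REH and the parts of BCL2L11, BID and BBC3 were larger in 697. The pairs compared here, some across the sides and some of the same role, were chosen after the counts had been seen. The ratio of BCL2 to BCL2L11 was 4.62 (interval 4.42 to 4.83) in REH and 1.45 (interval 1.39 to 1.52) in 697, a 3.18-fold difference. BCL2 and BCL2L11 had the highest and the lowest log2 ratio of the 9 members (0.89 and -0.78). This pair therefore had to be the widest of the 6 compared, and its rank is no separate result. The ratio of MCL1 to PMAIP1 was 1.01 in REH and 1.10 in 697, which differed by -0.12 on the log2 scale (interval -0.20 to -0.03). The ratio of BAX to BAK1 was 2.99 in REH and 2.65 in 697 per kb of exon, and 9.55 and 8.46 per kb of canonical transcript. Per kb of exon, that of BCL2L11 to BBC3 was 1.76 and 1.82, where the interval of the log2 difference held 0 (-0.22 to 0.13).

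**Figure D4:**
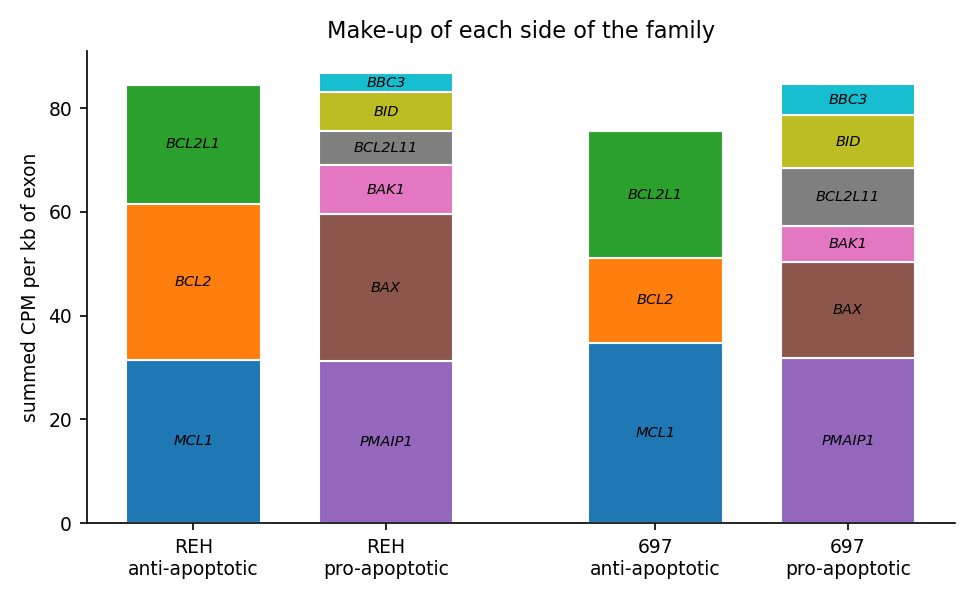
Summed CPM per kb of exon of the anti- and pro-apoptotic members in REH and 697, with the part of each gene stacked from 0. The BCL2 part is larger in REH (30.1 against 16.2), the BCL2L11, BID and BBC3 parts are larger in 697, and BCL2A1 is too low to be visible.

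Summed over the members, the opposing sides were close to even in both lines. In REH the anti-apoptotic members summed to 84.6 CPM per kb and the pro-apoptotic members to 86.7, a ratio of 0.976 (interval 0.955 to 0.997) or -0.04 on the log2 scale. In 697 the sums were 75.5 and 84.7 CPM per kb, a ratio of 0.891 (interval 0.868 to 0.915) or -0.17 on the log2 scale. The balance was thus 1.09-fold higher in REH, a log2 difference of 0.13 (interval 0.08 to 0.18), which fell to 0.028 with canonical transcript length. The anti-apoptotic sum was 1.12-fold and the pro-apoptotic sum 1.02-fold higher in REH.

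The sign of the balance rested on how levels were summed. With coding length in place of exon length it was 0.22 on the log2 scale in REH and -0.28 in 697. As a difference of mean log2 levels it was 1.38 and 1.01, but that mean took 9 members and left out BCL2A1. BCL2A1 is the lowest anti-apoptotic member, and a mean of log2 levels that kept it was not computed. Among single members, the sign of the difference between the lines rested on BCL2: without BCL2 the difference was -0.15. Without each other member in turn it lay between 0.04 and 0.35. The lowest of these, without BCL2L11, was below the interval of 0.08 to 0.18 of the full difference. The roles on the pro-apoptotic side pulled in opposite directions. Against the effectors alone the log2 balance was 1.16 in REH and 1.56 in 697, a difference of -0.40, and against the BH3-only genes alone it was 0.79 and 0.35, a difference of 0.44.

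**Figure D5:**
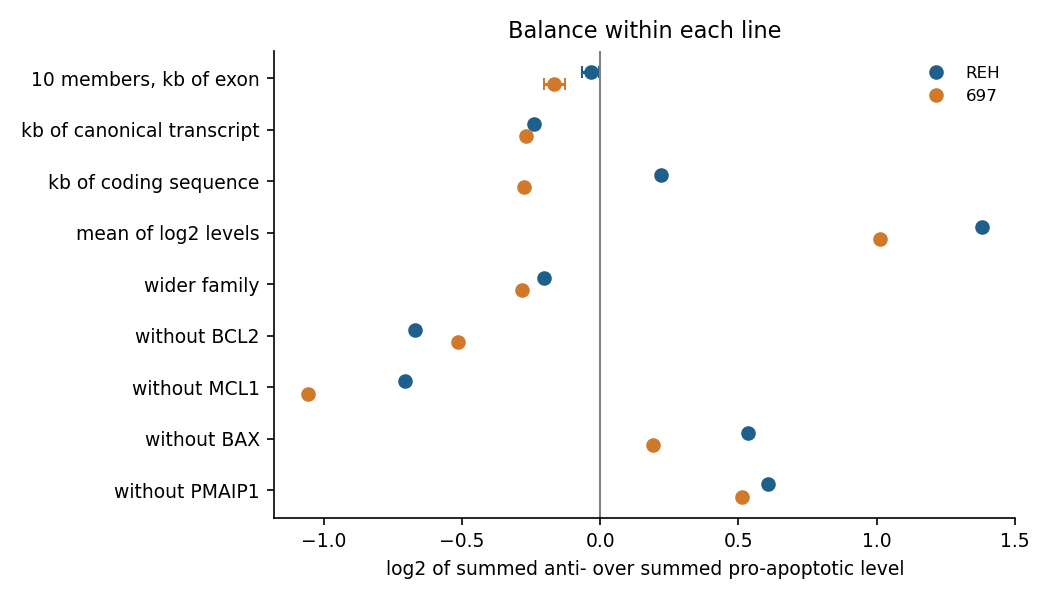
Log2 of the summed anti- over the summed pro-apoptotic level in REH (blue) and 697 (orange) under 5 ways of computing it and with 4 members left out in turn; error bars on the first line are 95% counting intervals. The mean of log2 levels leaves out BCL2A1. Points lie on both sides of 0, and REH lies right of 697 in every line except the one without BCL2.

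The wider family was described in the same way, with 7 further genes of known side. The minimum of 10 reads was reached by 6, and all 6 had a log2 ratio above 0. The median over all genes was also above 0, at 0.05, and the interval of BAD held 0. Of the 6, 1 passed a ratio of 2 in size (16.7%, against 20.7% of all genes). That gene was BIK, a BH3-only gene of the endoplasmic reticulum, with 74 reads in REH against 6 in 697 (3.07 on the log2 scale, interval 1.99 to 4.67). BMF, a BH3-only gene linked to the cytoskeleton, had 1450 reads in REH against 363 in 697 (1.55 on the log2 scale, interval 1.39 to 1.72). It shares exon bases with BMF-AS1 on the opposite strand. The BMF reads counted by strand added up to 1609 in REH and 393 in 697, so its count and ratio are uncertain. BOK, an effector relative, had 23 and 5 reads (log2 ratio 1.65, interval 0.33 to 3.51). Of the BH3-only members above, 3 were lower in REH and PMAIP1 was level, whereas BIK and BMF were higher there.

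The anti-apoptotic BCL2L2, the gene of BCL-W, had 1471 reads in REH against 683 in 697 (0.66 on the log2 scale, interval 0.53 to 0.80). It shares exon bases with the readthrough gene BCL2L2-PABPN1 and, on the opposite strand, with PPP1R3E. The BCL2L2 reads counted by strand added up to 1585 in REH and 810 in 697, so its count and ratio are uncertain. HRK, a BH3-only gene best known in neurons, had 908 and 502 reads (log2 ratio 0.41, interval 0.25 to 0.57), and was thus also higher in REH. BAD, a BH3-only gene under control of survival kinases, had 703 and 494 reads (log2 ratio 0.06, interval -0.10 to 0.23). Its count is uncertain because it overlaps GPR137 on the opposite strand: the reads counted by strand added up to 1359 in REH and 827 in 697. BCL2L10 had 5 reads in REH and 0 in 697. With the wider family included, the log2 balance was -0.20 in REH and -0.28 in 697.

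Of 4 BCL2-related genes with no assigned side, 3 had at least 10 reads and none of them passed a ratio of 2 in size. Among all genes with at least 10 reads, 20.7% passed that ratio. Downstream of the mitochondria, 1 of 10 genes (10.0%) passed it: BIRC3, an inhibitor of apoptosis induced by NF-kB, with 36 reads in REH against 1 in 697 (4.16 on the log2 scale, interval 2.16 to 10.07). The other 9, among them the apoptosome genes APAF1, CASP9 and CYCS, lay between -0.68 (BIRC2) and 0.57 (XIAP). Of the 3 genes for turnover of MCL1 protein, 1 passed the ratio (33.3%). Lists of 3 to 10 genes are too short for such counts to be set apart from the share of all genes. FBXW7, the substrate receptor of a ubiquitin ligase that targets MCL1 among other proteins, had 2599 reads or 51.7 CPM in REH and 12566 reads or 340 CPM in 697, 6.58-fold higher in 697 (log2 ratio -2.72, interval -2.78 to -2.66). The ligase gene HUWE1 (log2 ratio -0.16) and the deubiquitinase gene USP9X (0.12) stayed near 0, as did the RNA of MCL1 itself. MCL1 protein, on which these turnover genes act, was not measured in these libraries.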

How the data were processed

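Gene counts deposited by the authors were used as they stand, as raw read counts per gene, 1 library per line. Per the methods of the study, poly(A) RNA was prepared with a TruSeq kit, sequenced on a NextSeq instrument and aligned to hg38 with STAR. The labels describe ribodepleted stranded libraries, and the submitters' processing notes name hg19. The annotation used for counting is not given in the sources used here. Reads of both strands together were used, since 50.1% (REH) and 50.2% (697) of reads counted by strand lay on the strand of the gene. Reads outside the gene rows, 29.3% in REH and 30.3% in 697, were left out of totals.

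GENCODE 44 (GRCh38) gave symbols, positions and lengths, and 51996 of the 57773 gene IDs were found in it. All members and listed genes matched. Lengths are merged exons, which can differ from those the authors counted. Library totals were scaled with TMM in edgeR 4.0.16 (R 4.3.3) over the 19145 genes that reached 10 reads in REH or 697. Log2 ratios have 0.5 reads added to each count and an exact Clopper-Pearson interval, level intervals are exact Poisson, and the balance is the log2 ratio of summed reads per kb with a delta-method interval. Duplicate reads are not independent molecules, so intervals and the floor of 3 reads cover counting error only. The computation was tested on simulated data. Alternatives were DESeq2 1.42.0 size factors, unscaled totals, other lengths, thresholds and filters, and each strand column. All 10 members are named, the wider family too, and other listed genes by value where past a log2 ratio of 2 in size; a few further ones were named after their values were seen. The members and lists were chosen with earlier results of these data known. Python 3.11.15 with scipy 1.17.1 was used for the remaining steps.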

Additional observations from a re-analysis of the deposited data

How the results depend on the processing

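No paired analysis was possible because REH and 697 have a single library apiece, and for the same reason no replicate could be left out. The count of members past a log2 ratio of 2 in size was 0 under every alternative except a minimum of 1 read, where it was 1, since BCL2A1 with 7 and 0 reads then entered. Of the single log2 ratios, all 10 stayed within their counting interval with DESeq2 size factors, with 5 reads added and on the strand of the gene, and 9 did so on the opposite strand. Without TMM scaling, which moves every ratio by 0.31, only 1 of the 10 stayed within its interval: the ratios of MCL1 and BCL2L1 reversed, to 0.16 and 0.21, and the other 7 left their interval, among them PMAIP1, which changed sign to 0.28.

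On the log2 scale, the balance in REH was -0.24 per kb of canonical transcript, 0.22 per kb of coding length, 1.38 as a difference of mean log2 levels (9 members, without BCL2A1) and -0.20 with the wider family. In 697 the same settings gave -0.27, -0.28, 1.01 and -0.28. The difference between the lines was 0.028, 0.50, 0.37 and 0.079, of which the first is smaller than the counting error of the difference as reported. Each strand column left the balance and the difference within their counting intervals. Which length matches the transcripts present in these cells was not tested.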
